A study of Mus musculus with 6 samples.

Results

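CTCF binding sites of the distal forelimb bud were divided here by whether they met an acetylated region, that is, a region enriched for H3K27ac. Both peak lists came from the same piece of tissue, the distal forelimb (DFL, the presumptive digits). Lines that shared an interval were collapsed to 1 region on chromosomes 1 to 19 and X, and a CTCF site counted as acetylated when it shared at least 1 bp with a DFL H3K27ac region. Of 54673 DFL CTCF sites, 7830 were acetylated and 46843 were not. The 8 peak lists of the series held 379158 regions in all.

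The study moved a digit enhancer between the regulatory landscapes that flank the HoxD cluster, and the 6 ChIP-seq samples used here describe the chromatin of normal limb buds. All came from wild-type embryos of strain B6CBAF1 at the stage labelled E12, with no treatment, and H3K27ac, CTCF and H3K27me3 were each profiled in DFL and in the proximal forelimb (PFL, the presumptive forearm and upper arm). There was 1 library per mark and piece, made from pooled tissue, so differences between embryos cannot be seen, and fewer cells with a mark cannot be told apart from less of it per cell. With single libraries no p-value was computed, and every interval given is a 95% interval for counting error only. Another 2 lists, of the transcription factors HOXA13 and HOXD13 (together HOX13), came from whole forelimb buds of an earlier stage and belong to none of the samples.

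CTCF is a zinc finger protein that binds a long, asymmetric DNA motif. It stops the cohesin complex as that complex extrudes chromatin loops, and pairs of sites whose motifs point towards each other mark many loop ends and domain borders. H3K27ac is deposited by the acetyltransferases p300 and CBP on nucleosomes beside active promoters and enhancers. In limb buds, CTCF sites lie within and around the Hox clusters, and acetylated enhancers are spread over the neighbouring gene deserts.

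H3K27ac at promoters was first set against the labelled tissue. It lay within 2 kb of a transcript start for 59.2% of 21701 protein-coding genes and for 25 of 28 distal limb regulators, the exceptions being Sall3, Grem1 and Shh. Of 20 proximal limb regulators 18 carried H3K27ac there too, so these counts do not tell a distal from a proximal piece. None of 7 skeletal muscle genes and none of 6 neuron and glia genes carried it, against 1 of 6 brain genes (Dlx1, which limb buds also use), 1 of 6 liver genes (Apoa1) and 3 of 8 blood genes. All 6 endothelial genes carried it, among them Cdh5 and Kdr, and limb buds contain vessels. The part that these other cells have in the overlaps below was not tested. The lists give no read totals. The lowest local background solved from the deposited values, a stand-in for depth, was 6.47 fragments for DFL CTCF and 12.49 fragments for DFL H3K27ac.

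The DNA under the sites held the CTCF motif. A matrix of 19 positions was built from the strongest sites of both classes with no prior motif. Its last round used the 1400 of 2000 sequences that matched best. Positions 5, 9, 10 and 13 held 1 base in 97.4% to 100% of those 1400, which were thus chosen for matching. The consensus is given first below to show the letters on which the later counts rest. Then follow the best matches of 3 acetylated and 3 unacetylated sites from among the strongest, all within the 2000. The 19 matched bases are in capitals with 5 bases of mm10 (RefSeq GRCm38.p6) on each side, all read along the motif strand.
Consensus: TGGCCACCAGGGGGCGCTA
Acetylated promoter site near Lrrc59 (chr11:94629691-94629709, plus strand): cagccTGGACGGCAGAGGGCGCGCcggta
Acetylated promoter site near Bclaf3 (chrX:159532513-159532531, plus strand): gagcgCAGCCAGCAGAGGGCGCTAgagag
Acetylated intergenic site near Scg3 (chr9:75720448-75720466, plus strand): aaaggTGACCAGAAGAGGGCAACAgaacc
Unacetylated promoter site near Kifc1 (chr17:33890951-33890969, minus strand): agcagTATCCGCTAGGTGGCGCTCgctcc
Unacetylated intron site in Mrc1 (chr2:14295607-14295625, minus strand): gcatcCAGCCAGCAGAGGGCAGTAccggg
Unacetylated intergenic site near Oxgr1 (chr14:120061304-120061322, minus strand): tcaggCAGCCACAAGGGGGCAGGCaaagc

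These 6 sites shared between 12 and 15 of the 19 consensus bases, the Bclaf3 site the most and the Scg3 and Oxgr1 sites the fewest. A site was said to hold a motif match when the best score on either strand within 100 bp of its summit passed a threshold that 5% of windows of the same length, placed 2 kb away, also passed. By this measure 81.7% of all DFL CTCF sites held a match, and 59.3% did so at a threshold passed by 1% of the windows.

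The acetylated class made up 14.3% of the CTCF sites (95% interval 14.0 to 14.6). When the H3K27ac list was shifted circularly within each chromosome, 100 times, between 2.07% and 2.47% of the sites were met, with a mean of 2.28%, so the deposited positions gave 6.29 times the mean of the shifts. Promoter sites, those with the summit within 2 kb of a transcript start, were acetylated in 50.9% of cases, against 1.86% to 2.78% in the shifts. Distal sites were acetylated in 7.39% of cases, against 2.04% to 2.50% in the shifts. The deposited overlap lay above the whole range of the shifts at both kinds of site and was the larger at promoters. On single chromosomes the acetylated share lay between 11.3% (chromosome 5) and 16.2% (chromosome 11).

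Placement differed strongly between the classes. Of the acetylated sites 56.6% (55.5 to 57.7) were at promoters, against 9.13% (8.88 to 9.40) of the unacetylated sites, a difference of 47.5 percentage points (46.3 to 48.6). Introns held 19.1% of acetylated and 46.9% of unacetylated sites, and the ground between genes held 21.8% of acetylated and 39.9% of unacetylated sites. Exons away from promoters held 2.52% of acetylated and 4.07% of unacetylated sites. Within 500 bp of a start the contrast was wider in relative terms, with 39.9% of acetylated against 2.64% of unacetylated sites. Even among promoter sites the acetylated ones sat closer, with a median distance from summit to start of 249 bp, against 953 bp for unacetylated promoter sites.

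The DNA of the classes differed in base composition. Over the 201 bp around the summit the median GC content was 55.7% in acetylated sites and 47.3% in unacetylated sites. The ratio of observed to expected CpG had a median of 0.514 in acetylated sites and 0.187 in unacetylated sites. Among promoter sites the median CpG ratio was 0.685 in acetylated and 0.292 in unacetylated sites. Among distal sites the median CpG ratio was 0.310 in acetylated and 0.179 in unacetylated sites.

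Acetylated sites were stronger as a class, by the fold enrichment that the authors' peak caller gave to the summit over local background. The median fold was 9.46 (quartiles 4.82 and 14.9) in acetylated sites and 7.58 (4.45 and 12.55) in unacetylated sites, a ratio of 1.25, and in the shifts this ratio lay between 0.995 and 1.17. The number of fragments over the summit, solved from the deposited values, had a median of 95 in acetylated sites and 66 in unacetylated sites. The local background had medians of 8.87 fragments in acetylated and 7.34 fragments in unacetylated sites, so the numerator and the denominator of the fold were both higher in acetylated sites. On 19 of 20 chromosomes the median fold was higher in the acetylated class. On the X chromosome it was lower, at 0.955 times that of unacetylated sites.

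The excess of strength was larger in distal than in promoter sites, and larger in sites with a motif than in those without. Among distal sites the median fold was 11.6 in acetylated and 7.61 in unacetylated sites, a ratio of 1.52. Among promoter sites it was 8.12 in acetylated and 7.49 in unacetylated sites, a ratio of 1.08. Distal sites with a motif match had a median fold of 13.5 when acetylated and 8.30 when not. Distal sites without a match were weak in both classes, at 5.09 in acetylated and 4.81 in unacetylated sites. Promoter sites with a match had a median fold of 11.3 when acetylated and 8.30 when not, a ratio of 1.36. Promoter sites without a match had 5.16 and 5.09.

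How a CTCF site met the acetylated region divided the class further. In 4533 acetylated sites the CTCF summit lay inside the H3K27ac region, and in the other 3297 only the edges overlapped, with the CTCF summit outside. This split was made after the data were seen. Summit-inside sites had a median fold of 6.69 (95% interval of the median 6.43 to 6.93) and edge sites one of 13.2 (12.97 to 13.46), against 7.58 in sites with no overlap. The higher median of the acetylated class thus lay in the edge sites, and the summit-inside sites were weaker than unacetylated ones, at 0.883 times their median fold. When 50% of the CTCF site had to be covered, the ratio of acetylated to unacetylated sites was likewise below 1, at 0.897. In the shifts the fold ratio to sites without overlap lay between 0.896 and 1.11 for summit-inside sites and between 1.05 and 1.37 for edge sites. The deposited ratio of 1.74 for edge sites was above that range, and the 0.883 of summit-inside sites was just below theirs.

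**Figure D1:**
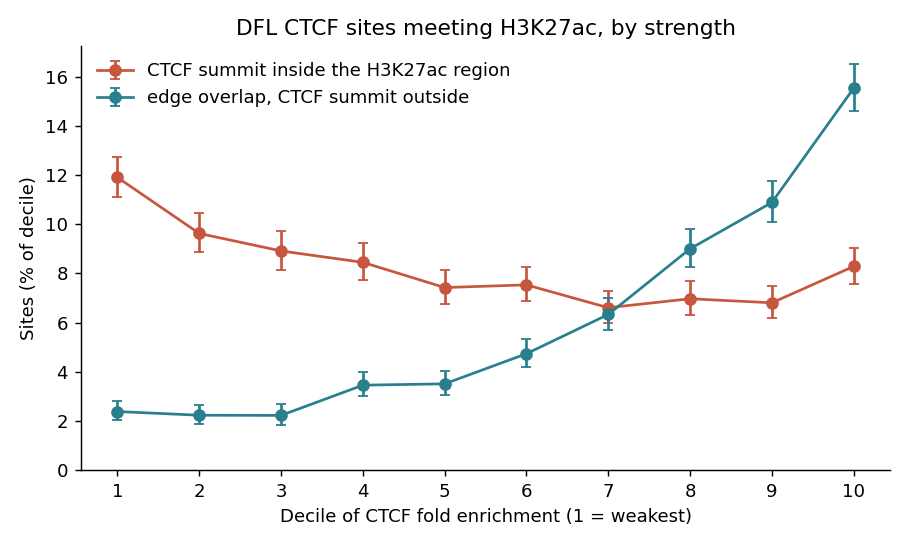
Share of DFL CTCF sites in each decile of fold enrichment (x axis, 1 is the weakest) that met H3K27ac with the CTCF summit inside the region or by an edge only (y axis, percent of the decile, bars are 95% Wilson intervals). Summit-inside overlap ran between 6.61% and 11.9% and was highest in the weakest decile, while edge overlap was between 2.23% and 3.51% in the 5 weakest deciles and 15.5% in the strongest.

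Seen by strength, the overlap with H3K27ac had 2 parts. In the weakest decile of sites, with a fold of up to 3.48, 14.3% were acetylated, and 11.9% were so with the summit inside. In the fifth decile 10.9% were acetylated, the lowest share of any decile. In the strongest decile, with a fold of at least 16.7, 23.8% were acetylated, and 15.5% were so by an edge alone. Among distal sites the acetylated share was 6.40% in the weakest decile, 4.36% in the third and 15.3% in the strongest. Among promoter sites it was 51.5% in the weakest, 44.8% in the fifth and 61.2% in the strongest.

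The motif was rarer in acetylated sites although they were stronger. A match was found in 64.7% (63.6 to 65.8) of acetylated and 84.6% (84.3 to 84.9) of unacetylated sites. The windows 2 kb away held a match in 4.94% of acetylated and 5.01% of unacetylated sites, so the threshold acted alike on both surroundings. At promoters a match was found in 57.6% of acetylated and 78.7% of unacetylated sites, and at distal sites in 74.0% of acetylated and 85.2% of unacetylated sites. The share with a match was lower in the acetylated class on all 20 chromosomes, by between 15.7 and 24.9 percentage points.

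The gap in motif content was widest among weak sites. In the weakest decile 28.1% (25.3 to 31.2) of acetylated sites held a match, against 68.9% (67.7 to 70.2) of unacetylated sites. In the strongest decile 90.8% (89.1 to 92.2) of acetylated sites held one, against 96.2% (95.6 to 96.8) of unacetylated sites. The 1000 strongest sites of each class, from which the matrix was built, lie in this decile, so its shares are not independent of the matrix. In the ninth decile, which held none of them, the shares were 87.0% of acetylated and 94.5% of unacetylated sites. Summit-inside sites held a match in 52.2% of cases (50.8 to 53.7), edge sites in 81.8% (80.5 to 83.1), and sites over 1 kb from any acetylated region in 85.1% (84.8 to 85.4). Where there was a match it lay close to the summit in both classes, at a median of 12 bp in acetylated and 13 bp in unacetylated sites.

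**Figure D2:**
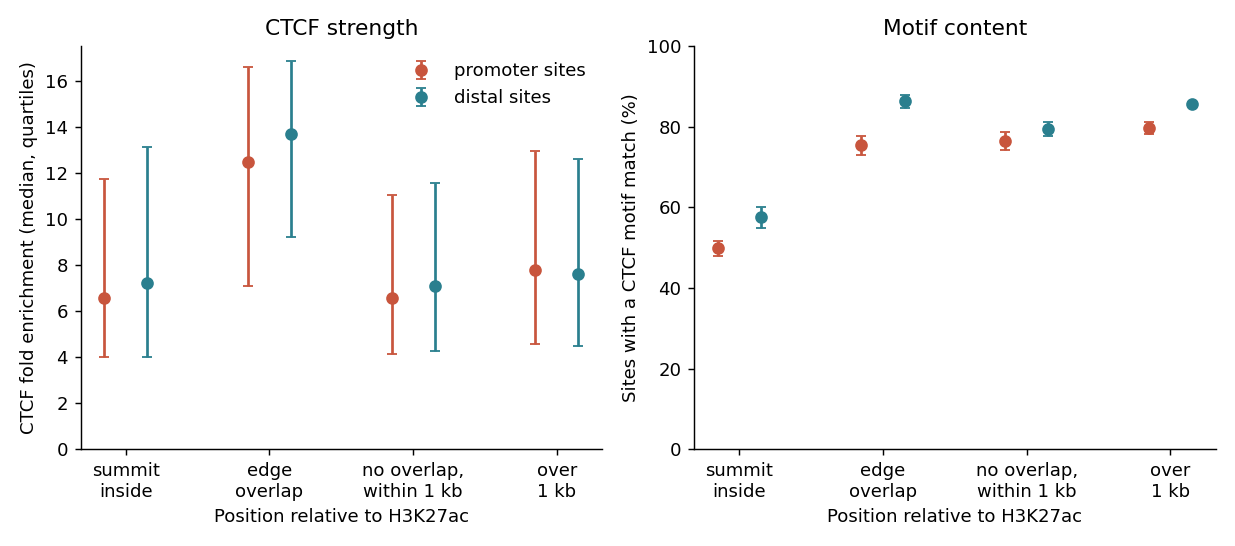
Left, CTCF fold enrichment (points are medians, bars are quartiles) and right, share of sites with a motif match (percent, bars are 95% Wilson intervals) by the position of the CTCF site relative to DFL H3K27ac, for promoter and distal sites. Edge sites had the highest median fold at promoters (12.49) and distally (13.7), and summit-inside sites had the lowest share with a match at promoters (49.8%) and distally (57.5%).

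The same split held at promoters and away from them. Promoter sites with the summit inside had a median fold of 6.56 and promoter edge sites one of 12.49, against 7.49 in unacetylated promoter sites. Distal sites with the summit inside had a median fold of 7.23 and distal edge sites one of 13.7, against 7.61 in unacetylated distal sites. Sites that came within 1 kb of an acetylated region without touching it, 3611 in number counting 8 that abutted one, were not strong, with a median fold of 6.96. The summit-inside sites stood out in composition too, with a median GC content of 59.2%, against 52.2% in edge sites and 47.3% in sites over 1 kb away.

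At promoters the motif also separated 2 kinds of acetylated site. The 2551 acetylated promoter sites with a match had a median fold of 11.3, and the 1881 without one had a median of 5.16. Both lay near the start, with 44.8% of those with a match and 43.5% of those without one within 200 bp. Those with a match lay upstream of the start in 59.1% of cases and those without one in 44.6%. Of unacetylated promoter sites with a match, 14.6% were within 200 bp of the start.

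H3K27ac around distal CTCF sites was lopsided with respect to the motif. Distal sites with a match were aligned at the summit and read along the motif, and the share of the 38776 sites covered by H3K27ac was taken at each distance. Coverage was 4.92% at 300 bp on the 3′ side, 2.15% at the summit and 2.86% at 300 bp on the 5′ side. At 1000 bp it was 2.13% on the 3′ side and 1.46% on the 5′ side. The summit was thus a dip between 2 unequal shoulders. Distal sites without a match had no such dip, with 8.57% coverage at the summit, 7.54% at 300 bp on one side and 7.17% on the other, and since their strand is that of a match under the threshold, their sides have no meaning.

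**Figure D3:**
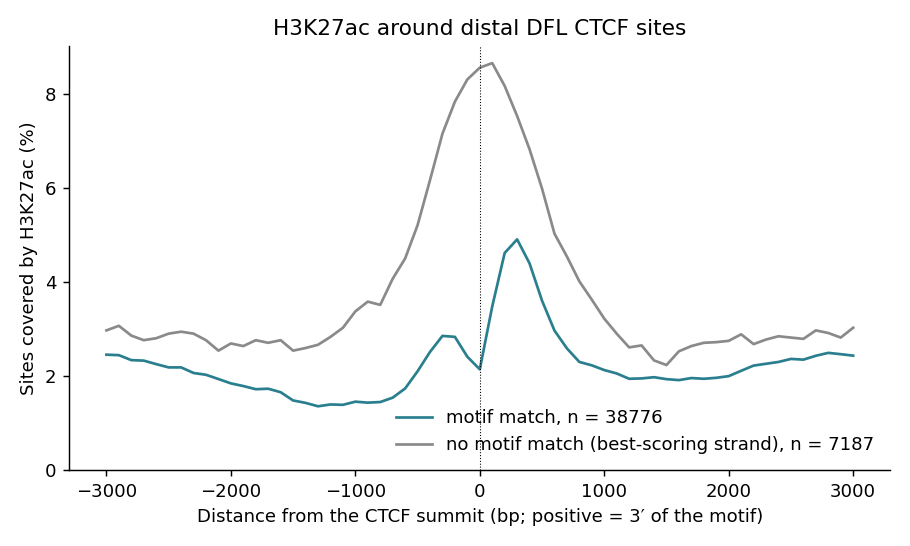
Share of distal DFL CTCF sites covered by DFL H3K27ac (y axis, percent) against distance from the CTCF summit in bp (x axis, positive values on the 3′ side of the motif), for sites with and without a motif match. Sites with a match show a dip of 2.15% at the summit between shoulders of 2.86% at 300 bp on the 5′ side and 4.92% at 300 bp on the 3′ side.

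Single sites gave the same picture. Of 1562 distal sites with a match whose summit lay outside their 1 overlapping acetylated region, 1112, or 71.2% (68.9 to 73.4), had that region on the 3′ side of the motif. In 100 shifts the share lay between 45.1% and 58.9%. CTCF regions themselves reached slightly further on that side, with median distances from the motif centre to the region edge of 242 bp on the 3′ side and 219 bp on the 5′ side in acetylated distal sites, and the shifts contain this tilt. With the motif centre in place of the summit the share was 71.9%, and with the stricter motif threshold it was 72.1%. In PFL, with the PFL lists of CTCF and H3K27ac, it was 71.6% (69.5 to 73.6), although most PFL sites are also DFL sites, so PFL is not a separate set of sites. At promoters the share was 64.0% (60.7 to 67.1), which lay inside the wide range of the shifts there, 36.4% to 71.7%.

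The lean was short in range. Of 1783 unacetylated distal sites with a match and an acetylated region within 1 kb, 57.9% (55.6 to 60.2) had the nearest one on the 3′ side, against 46.9% to 52.5% in the shifts. Within 10 kb the share was 50.9% and within 100 kb it was 49.1%. The 3′ regions of edge sites had a median H3K27ac fold of 3.04 and the 5′ regions one of 2.82. Regions that lay over a distal CTCF summit with a match had a median fold of 4.16 and a median length of 746 bp, against 377 bp for those on the 3′ side and 359 bp for those on the 5′ side. This comparison was chosen after the data were seen.

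Summits of the marks coincided less often than in the shifts. Overlapping sites had an H3K27ac summit within 100 bp of the CTCF summit in 17.4% of cases, against 25.4% to 31.7% in the shifts. The share was 8.19% in acetylated distal sites with a match and 35.0% in acetylated distal sites without one. Sites wholly covered by H3K27ac made up 32.5% of acetylated sites, just above the 25.1% to 31.5% of the shifts. Of the unacetylated sites 102 had an acetylated region within 1 kb on both sides, against between 22 and 54 sites in the shifts.

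Unacetylated CTCF sites were also nearer to acetylated regions than shifted lists place them. Their median distance to the nearest H3K27ac region was 13500 bp (13263 to 13744), against medians between 30210 and 39574 bp in the shifts. Within 1 kb lay 7.71% of them, against a mean of 3.57% in the shifts, and between 1 and 5 kb lay 19.8%, against 11.8%. Over 100 kb away lay 10.1%, against a mean of 32.3% in the shifts. Unacetylated promoter sites had a median distance of 4290 bp and unacetylated distal sites one of 14334 bp. Circular shifts ignore assembly gaps and gene density, whose part in these differences was not tested.

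**Figure D4:**
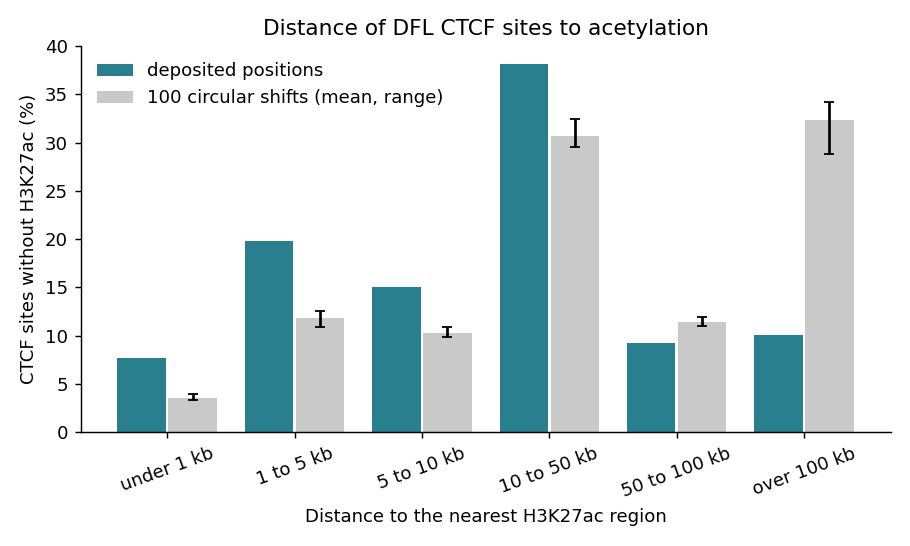
Share of unacetylated DFL CTCF sites (y axis, percent) by distance to the nearest DFL H3K27ac region (x axis, bins in kb), at the deposited positions and in 100 circular shifts (bars are means, whiskers the range). Each bin up to 50 kb held more sites than in the shifts, from 7.71% against 3.57% under 1 kb, and the bin over 100 kb held fewer, 10.1% against 32.3%.

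The sites farthest from acetylation lay megabases away. The longest distance, 3147917 bp, belonged to a site on chromosome 1 (chr1:101438848-101439111) with a fold of 4.42 and a motif match. A site on the X chromosome lay 2921621 bp away with a fold of 3.75 and no match. Another on chromosome 1 (chr1:147223228-147223643) lay 2737132 bp away with a fold of 15.4 and a match. Only the last of these was also a PFL site.

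The strongest sites of all were found in both classes. At acetylated promoters the 5 highest folds were 26.4 near Lrrc59, which encodes a ribosome-binding protein of the endoplasmic reticulum, 23.7 near Srp9, a subunit of the signal recognition particle, 23.6 near Bclaf3, 23.4 near Utp3, a factor of ribosome assembly, and 23.3 near Csk, a kinase that inhibits Src kinases. In all 5 the CTCF summit lay upstream of the start, at offsets between -286 and -57 bp, and all 5 held a motif match. Strong acetylated distal sites had folds of 25.4 between genes near Scg3, 23.2 in an intron of Dnm3, a dynamin, 22.5 between genes near Adar, an RNA-editing enzyme, and 22.1 in an intron of 1700092C02Rik. The Scg3 site shared 47 of its 505 bp with H3K27ac. Of all acetylated distal sites with a match, 13.3% were wholly covered by it.

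Among unacetylated sites the highest fold was 25.4, 283 bp upstream of a start of Kifc1, a kinesin of the mitotic spindle. The nearest acetylated region lay 5 bp from the edge of this site, so its class rests on a few bases. The next were 24.7 near Gm47882, 24.6 in an intron of Mrc1, the macrophage mannose receptor, 24.5 near Oxgr1, a receptor for oxoglutarate, and 24.3 near E330020D12Rik. Their distances to an acetylated region were 63672 bp, 163677 bp, 12218 bp and 52920 bp in that order. All 14 of these strong sites were also called as CTCF sites in PFL.

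Readouts that the division did not use differed to unequal degrees. PFL CTCF overlapped 91.1% (90.5 to 91.7) of acetylated and 88.3% (88.0 to 88.6) of unacetylated sites, so most sites of either class were called in both pieces. The difference of 2.82 points turned to -1.92 points when the CTCF summit had to lie inside the H3K27ac region and to -1.33 points when 50% of the site had to be covered, and it was 0.0290 points among sites with a fold of at least 5. PFL H3K27ac overlapped 89.4% of acetylated and 3.24% of unacetylated sites. HOXA13 overlapped 29.7% of acetylated and 7.48% of unacetylated sites, and HOXD13 overlapped 25.6% of acetylated and 4.88% of unacetylated sites. Shifted lists met at most 2.78% of acetylated and 2.29% of unacetylated sites for HOXA13, and at most 1.89% and 1.61% for HOXD13.

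CTCF and HOX13 met at acetylated ground with or without the CTCF motif, and HOX13 was common at acetylated regions without CTCF too. It overlapped 44.2% (42.6 to 45.9) of distal H3K27ac regions with CTCF and 38.8% (38.3 to 39.3) of those without. Among distal sites with a match HOX13 overlapped 38.7% of acetylated and 8.44% of unacetylated sites, and among distal sites without a match it overlapped 41.6% of acetylated and 8.17% of unacetylated sites. H3K27me3, the Polycomb mark, showed the opposite order at promoters. DFL H3K27me3 overlapped 3.72% (3.20 to 4.32) of acetylated and 13.5% (12.47 to 14.52) of unacetylated promoter sites. At distal sites it overlapped 1.85% of acetylated and 0.865% of unacetylated sites.

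The sites were also divided by acetylation in each piece. Of the DFL CTCF sites 6999 were acetylated in both pieces, 831 in DFL alone, 1518 in PFL alone and 45325 in neither. PFL CTCF was called at 91.5% (90.8 to 92.1) of the sites acetylated in both pieces, at 88.2% (85.8 to 90.2) of those acetylated in DFL alone, at 95.1% (93.9 to 96.0) of those acetylated in PFL alone, and at 88.1% (87.8 to 88.4) of those acetylated in neither. The share was thus higher where PFL alone was acetylated than where DFL alone was, beyond counting error, among sites that all had a DFL CTCF peak. The sites acetylated in PFL alone also had a higher median fold, 10.7 against 9.97 in DFL alone. A motif match was found in 77.7% (75.6 to 79.8) of them, against 73.3% (70.2 to 76.2). The part of strength and motif in the difference was not tested. Sites acetylated in DFL alone were at promoters in 17.6% of cases, against 61.2% of those acetylated in both pieces. HOX13 overlapped 30.8% of the sites acetylated in DFL alone and 20.03% of those acetylated in PFL alone. The H3K27ac library of DFL gave 59804 regions and that of PFL 69503, and the part of this difference in these counts was not tested.

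The same comparison within PFL gave like values. There 16.1% of 52801 CTCF sites were acetylated. The median fold was 9.54 in acetylated and 7.23 in unacetylated PFL sites, 53.3% of acetylated and 8.99% of unacetylated sites were at promoters, and 66.7% of acetylated and 85.3% of unacetylated sites held a motif match. Edge sites of PFL had a median fold of 12.7 and summit-inside sites one of 6.74.

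Turned round, 8050 of 59804 DFL H3K27ac regions, or 13.5% (13.2 to 13.7), held a CTCF site. Those with CTCF had a median H3K27ac fold of 4.33 and a median length of 697 bp, and those without had a fold of 2.80 and a length of 434 bp. Longer regions held CTCF more often, from 6.90% in the shortest of 4 length classes to 23.3% in the longest. Within the longest class the median H3K27ac fold was still 6.30 with CTCF and 4.99 without. Promoter regions held CTCF in 22.8% of cases and distal regions in 8.78%. Distal regions with CTCF were more often shared with PFL H3K27ac, at 82.4% (81.1 to 83.7), than those without, at 61.1% (60.6 to 61.6). They were also longer, with a median of 466 bp against 375 bp, and had a higher median fold, 3.17 against 2.59. The part of length and strength in the sharing was not tested.

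Over all protein-coding genes, 32.8% had a CTCF site within 2 kb of a start and 26.5% had both CTCF and H3K27ac there. CTCF lay at 44.8% (44.0 to 45.7) of acetylated and 15.4% (14.6 to 16.1) of unacetylated promoters. Of 21701 genes 5759 had both, 1360 had CTCF alone, 7084 had H3K27ac alone and 7498 had neither. Of the 7119 genes with CTCF, 4217 had some site that overlapped H3K27ac. The lists below were drawn up by function, were chosen with earlier results of these data known, and are described by counts beside those shares. Among acetylated promoters the interval for CTCF was 33.5% to 70.0% in distal and 16.3% to 56.3% in proximal limb regulators. It was 26.2% to 69.0% in imprinted and 35.9% to 62.3% in ribosomal protein genes, and these 4 intervals include the 44.8%. The interval of clustered protocadherins, 52.3% to 94.9%, lies above it. It rests on 9 of 11 promoters, which are close copies of each other. The unacetylated protocadherin promoters had CTCF in 88.6% of cases (76.02% to 95.05%), against the 15.4% of all unacetylated promoters. CTCF was thus common at protocadherin promoters with or without H3K27ac.

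Genes of CTCF itself and of cohesin, the ring complex that CTCF stops, had CTCF at 9 of 16 promoters, all 9 with H3K27ac. They were 9 of the 15 acetylated promoters of this list, a share with an interval of 35.7% to 80.2%, which includes the 44.8% of all acetylated promoters. In each of the 9 the strongest CTCF site overlapped H3K27ac, and in 8 it held a motif match. Over all protein-coding genes, some site overlapped H3K27ac in 4217 of the 7119 with CTCF, of which 5759 also carried H3K27ac. A match was held by 81.7% of all DFL CTCF sites. The highest folds were 20.5 at Pds5b, a regulator of cohesin release, 19.8 at Stag2, a cohesin subunit, and 19.5 at Esco1, which acetylates cohesin. Nipbl, the cohesin loader, had 18.3, Pds5a 17.4, the ring subunit gene Smc3 15.8 and the subunit gene Stag1 15.2. The gene Ctcf had a site of fold 9.30, its summit 214 bp from a start, which overlapped an H3K27ac region of fold 7.23. Smc1a, with the lowest fold of 3.61, was the exception without a match.

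Regulators of the distal limb had CTCF at 14 of 28 promoters, on or away from the acetylated region. Of the 28 genes 13 had both at the promoter and Grem1, a secreted BMP antagonist, had CTCF alone, with a weak site of fold 2.95 that lay 89195 bp from the nearest acetylated region. In 6 of these 14 genes the strongest CTCF site overlapped H3K27ac. Some site did so in 7 of the 14, against 4217 of the 7119 protein-coding genes with CTCF. Gdf5, which encodes a growth factor of joints, had the strongest site, of fold 20.1, 732 bp from an acetylated region. Sox9, the regulator of cartilage, had a site of fold 17.5 at 673 bp, Bmp2 one of 13.3 at 1757 bp, and Sall4 one of 11.4 at 215 bp. Overlap was found at Jag1, a Notch ligand (fold 11.5), at the T-box gene Tbx3 (10.3) and at Bmp7 (7.45). Over these genes the median fold was 6.20 where the strongest site overlapped H3K27ac and 12.3 where it did not.

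Of 20 regulators of the proximal limb 6 had both and none had CTCF alone. Epha4, an ephrin receptor, had the strongest site, of fold 13.2, with an acetylated region 28 bp from its edge. Meis1, a homeobox factor of the upper limb, had an overlapping site of fold 5.73, and the zinc finger gene Osr1 one of 4.34. Hoxd10 had one of 5.72, Osr2 one of 4.65 that lay 1009 bp away, and Irx5 one of 3.36 that lay 812 bp away. Apart from Epha4 none of these 6 sites held a motif match.

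Imprinted genes, at which CTCF is known to read the methylation of some control regions, had CTCF at 9 of the 19 promoters measured, 8 of them with H3K27ac. Dlk1 had CTCF alone, a site of fold 3.61 lying 3015 bp from acetylation. Grb10 had the strongest site, of fold 15.4, which lay 9141 bp from an acetylated region, so the H3K27ac counted for this gene lay at another of its starts. Mest had an overlapping site of fold 10.7 and Peg10 and Sgce shared one of 8.97 between their starts. Sites at Gnas (9.88) and Magel2 (9.84) lay 1119 bp and 574 bp from acetylation, and those at Peg3 (5.83) and Nnat (5.36) overlapped it. The lists do not tell the parental alleles apart.

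The HoxD locus showed the classes in 3 neighbouring intervals. C-DOM, the centromeric landscape that holds the digit enhancers, had 12 CTCF sites over 703 kb, of which 3 were acetylated. The cluster from Evx2 to Hoxd1 had 10 sites over 112 kb, of which 1 was acetylated. T-DOM, the telomeric landscape that serves the forearm, had 21 sites over 890 kb and none was acetylated, which allows a share of up to 14.3% by the limit of 3 counts and of up to 15.5% by the Wilson interval. The Wilson intervals were 8.89% to 53.2% for C-DOM and 1.79% to 40.4% for the cluster. All 3 Wilson intervals rest on few sites and include the 14.3% of all DFL CTCF sites, while that of C-DOM lies above the 7.39% of distal sites. H3K27ac regions numbered 73 in C-DOM, 22 in the cluster and 26 in T-DOM. The median distance of unacetylated sites to acetylation was 2383 bp in C-DOM, 796 bp in the cluster and 18041 bp in T-DOM.

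**Figure D5:**
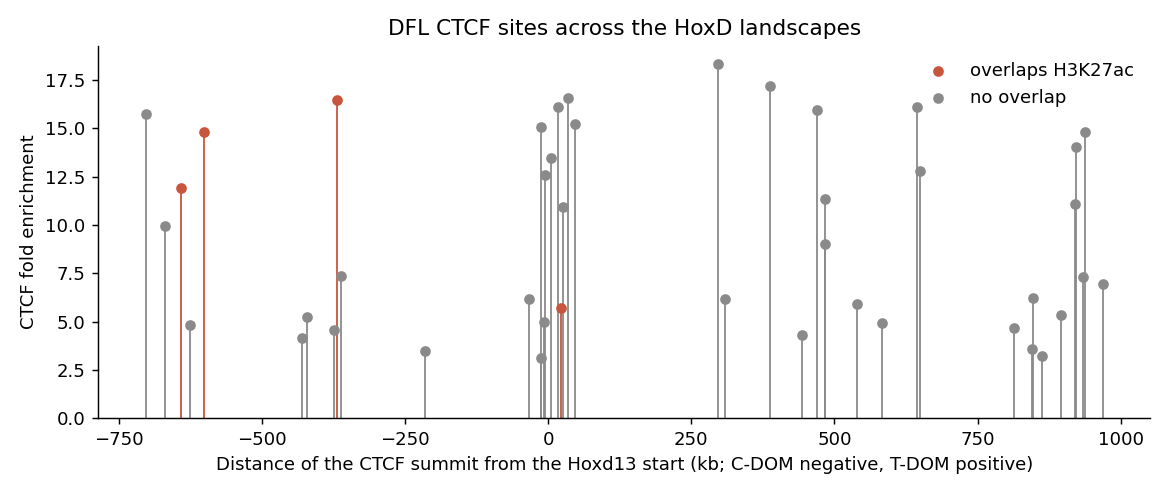
Fold enrichment of each DFL CTCF site (y axis) against its distance from the Hoxd13 start in kb (x axis, C-DOM at negative and T-DOM at positive values), coloured by overlap with DFL H3K27ac. The 4 acetylated sites are 3 in C-DOM, with folds of 11.9, 14.8 and 16.4, and 1 of 5.72 in the cluster, while none of the 21 T-DOM sites overlaps H3K27ac.

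The 3 acetylated C-DOM sites lay at -640 kb, -601 kb and -368 kb from the Hoxd13 start. Their folds were 11.9, 14.8 and 16.4, so they were the strongest of the 12 C-DOM sites apart from one of 15.8 that lay 4551 bp from acetylation. The first was wholly covered by an H3K27ac region of fold 4.39, and the other two met weaker regions of fold 3.40 and 3.39 by an edge. All 3 held a motif match on the plus strand. Their sequences are shown because they are the acetylated CTCF sites of the digit landscape, with the match in capitals and mm10 positions for it.
C-DOM site of fold 11.9 (chr2:74027918-74027936, plus strand): ttggtGGCCCAGTAGATGGCAGCCtgccc
C-DOM site of fold 14.8 (chr2:74066821-74066839, plus strand): acctgTCACCAATAGGGGTCTCCAgtgta
C-DOM site of fold 16.4 (chr2:74300445-74300463, plus strand): aacaaTGACCAGTAGGTGGCGGTCcagcc

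Inside the cluster CTCF was strong and acetylation passed close by it. The strongest sites had folds of 16.6 at 2207 bp from the nearest Hoxd8 start, 16.1 within Hoxd11, 15.2 within Hoxd3 and 15.1 within Evx2, and none of the 4 was acetylated. The Hoxd11 site lay 149 bp from an acetylated region and the Evx2 site 155 bp, while the Hoxd8 site lay 3321 bp and the Hoxd3 site 3338 bp away. The site upstream of Hoxd12, of fold 13.5, lay 1859 bp away. The acetylated site of the cluster was one of the weaker ones, of fold 5.72 and with no motif match, 123 bp upstream of a Hoxd10 start, and it shared 67 bp with a weak H3K27ac region of fold 1.51. All 10 sites were also called in PFL, and none overlapped PFL H3K27ac.

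The matches of all 8 cluster sites that held one are printed to show their strands, in order from Evx2 towards Hoxd3.
Evx2 exon site of fold 15.1 (chr2:74655523-74655541, minus strand): tcctgCTGCCGCTAGGGGGCGCCCcgggg
Evx2 exon site of fold 3.11 (chr2:74655887-74655905, plus strand): ccgagCTACCGCTGGGGGGCGCCCcagcc
Intergenic site beside Evx2 (chr2:74661997-74662015, minus strand): cgaggAAAACAGATGGGGGCGCCAaatga
Hoxd12 upstream site (chr2:74673174-74673192, minus strand): ccaaaCGCCCAGGAGATGGCGAGCgtgct
Hoxd11 intron site (chr2:74686477-74686495, plus strand): ttctaCAGCCACACGAGGGCGCGCtcatg
Hoxd10 gene site of fold 10.9 (chr2:74694225-74694243, minus strand): cttacTGATCTCTAGGCGGCGCTCgcggg
Hoxd8 upstream site (chr2:74702392-74702410, plus strand): gcattTGGCCACTAGAGAGCGCTGttgct
Hoxd3 site (chr2:74715918-74715936, plus strand): agcttTGTCCAGGAGGAGGCGCTGtagga

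Of these 8 matches 4 were on each strand, and the strand changed back and forth along the cluster. In C-DOM 5 matches were on the plus and 6 on the minus strand. In T-DOM 3 were on the plus and 14 on the minus strand, which at T-DOM points towards the cluster. Among the 36 sites with a match across the locus, only the 3 acetylated C-DOM sites combined a match with acetylation.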

How the data were processed

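Peak lists of 6 ChIP-seq samples were used, with 2 further lists outside the samples. Per the labels, cutadapt, Bowtie, SAMtools and MACS2 were used by the authors on mm10. According to the methods, peaks were called for each library alone, and no input control is named. The deposited fold enrichment is a ratio of summit pileup to local background, estimated by the authors' caller. The deposited −log10 p and −log10 q come from the same caller. Summit position is given as an offset.

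Regions on chromosomes 1 to 19 and X were collapsed by interval, with the values of the highest summit. Summit pileup and local background were recovered per region by setting the Poisson tail and the ratio (pileup + 1) / (background + 1) equal to the values listed, which gave an exact solution for 100% of CTCF regions. Transcript starts came from GENCODE vM21, of protein-coding and lncRNA genes (31358 in all). Of 21755 protein-coding genes, 54 with a shared symbol were left out of gene counts. The motif matrix was built from 101 bp around the summits of the 1000 strongest sites of each class, with each round kept to the 1400 best-scoring sequences. Sequence was read from RefSeq GRCm38.p6, whose chromosome lengths are those of mm10. Circular shifts numbered 100 per list. Shares carry Wilson 95% intervals and medians carry order-statistic intervals, all for counting error only, and neighbouring sites are not independent. Functions were tested on simulated data. Python 3 with NumPy, pandas and SciPy was used.

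Members and lists were chosen with earlier results of these data known. Genes were named by rule: HoxD genes with CTCF sites, listed genes with CTCF at the promoter (at most 8 a list by highest fold), the 5 strongest sites of each class and the 3 farthest from acetylation, leaving out 35 CTCF sites that overlap a region of all other 7 lists. One site and one marker gene that the rules name are not reported here. Smc1a, the C-DOM sites and the genes of the last section were chosen after their values were seen. Alternatives changed the overlap that counts, peak thresholds, joining of regions, the promoter window, the measure of strength, the motif threshold and the library.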

Additional observations from a re-analysis of the deposited data

Results flagged for a closer look

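Lines on chromosomes outside 1 to 19 and X entered no comparison, yet they held peaks. There were 119 such lines in the DFL CTCF list and 118 in the DFL H3K27ac list, which includes unplaced sequences, the Y chromosome and mitochondrial DNA. The highest CTCF fold among them was 18.8 and the highest H3K27ac fold was 11.9, both on unplaced or other sequences.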

How the results depend on the processing

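No paired analysis was possible because each mark and piece had 1 library. Of 74 values under alternatives, 29 stayed within the interval of the reported value, 41 moved outside it and 4 changed direction. With the CTCF summit required inside the H3K27ac region, 8.29% of sites were acetylated, the ratio of median folds turned to 0.847, the promoter difference was 56.8 points, the median distance 11748 bp, the motif difference -32.2 points, the PFL CTCF difference turned to -1.92 points, 7.37% of H3K27ac regions held CTCF and 2.33% of HoxD locus sites were acetylated. With 50% of the CTCF region covered these were 8.82%, 0.897 (turned), 56.7 points, 11903 bp, -30.2 points, -1.33 points (turned), 8.52% and 2.33%. By construction, the summit rule moves the edge sites into the unacetylated class. With −log10 q of at least 5 in both lists, 12.7% of sites were acetylated, the promoter difference was 51.6 points, the distance 18910 bp and 16.2% of H3K27ac regions held CTCF. With a CTCF fold of at least 5 the values were 15.1%, a fold ratio of 1.201, 44.5 points for promoters, 13766 bp, -14.0 points for the motif, 0.0290 points for PFL CTCF and 10.2% of H3K27ac regions. With H3K27ac regions joined, 16.1% of them held CTCF. A promoter window of 500 bp gave 37.2 points for placement and, over genes, a CTCF share at acetylated promoters 22.7 points above that at unacetylated ones, against 29.5 points at 2 kb, and protein-coding starts alone gave 45.9 points for placement. The strength ratio was 1.44 by pileup, 1.52 for distal sites, 1.08 for promoter sites, 1.51 for sites with a motif match and 1.06 for those without. The motif difference was -22.4 points at the stricter threshold and -11.2 points for distal sites. PFL H3K27ac met 15.6% of DFL CTCF sites. With the PFL lists throughout, the overlap was 16.1%, the fold ratio 1.32, the promoter difference 44.3 points, the motif difference -18.5 points and the distance 10959 bp. The 3′ share was 64.0% at promoters. Analyses by motif match, by PFL lists, by protein-coding starts and of the 3′ side were chosen after seeing the data. For the other settings the cause was not tested. No replicate could be left out, and the smallest peaks rest on few fragments, so weak sites and their class are the least certain.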

Other observations

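Clustered protocadherin genes, whose choice of promoter in neurons depends on CTCF, had CTCF at 48 of 55 promoters, against 32.8% of all protein-coding genes, and H3K27ac at 11. In 9 of the 48 the strongest CTCF site overlapped H3K27ac. The folds of these sites lay between 3.21 and 17.5, with a median of 8.39 where they overlapped H3K27ac and 5.62 where they did not. A motif match was found at 31 of the 48, and all 31 were on the plus strand. Among all promoter sites a match was found in 57.6% of acetylated and 78.7% of unacetylated ones. The promoters are close copies of each other, so the 31 strands are not independent observations. The authors discarded alignments of low mapping quality, so reads that map to several of these promoters may be lost.

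Ribosomal protein genes carried H3K27ac at all 51 promoters measured and CTCF at 25. In 19 of the 25 the strongest CTCF site overlapped H3K27ac, with a median fold of 13.4, against 7.87 in the other 6. Some site overlapped it in 19 of these 25 genes, all acetylated. Over all protein-coding genes it did so in 4217 of the 7119 with CTCF, of which 5759 also carried H3K27ac. Rpl5 had the strongest of these sites, of fold 20.1, its summit 13 bp from a start. HoxB genes, which carried H3K27ac at 1 of 10 promoters, had CTCF at 4, among them Hoxb5 with a fold of 19.3 at 49573 bp from the nearest acetylated region. The interval of that share, 16.8% to 68.7%, includes the 32.8% of all protein-coding genes. The strongest sites of the 4 genes were 3 distinct ones, since Hoxb7 and Hoxb8 shared theirs. In the HoxA cluster Hoxa3 (fold 18.6) and Hoxa10 (18.1) had sites that overlapped H3K27ac, and the site at Hoxa5 (15.9) lay 152 bp from it.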
